A study of Mus musculus with 16 samples.

Results

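The genes described here encode 9 ligand-sensing or ligand-related regulators of drug, steroid and energy metabolism in the mouse ileum. They are Nr1i2 (the pregnane X receptor, PXR), Nr1i3 (the constitutive androstane receptor, CAR), Ahr (the aryl hydrocarbon receptor), Ahrr (its repressor), Rxra (retinoid X receptor alpha), Nr5a2 (LRH-1), Nr3c1 (the glucocorticoid receptor), Esrra (estrogen-related receptor alpha) and Nr2f6 (an orphan receptor). The genes were listed by symbol, with no threshold on a measured value but with earlier results of these data known, and all 9 were found by Ensembl identifier among the 21965 genes of the count table. All 9 also passed the filter on low counts, which left 13811 genes for testing.

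RNA-seq was performed on an approximately 1.5 cm piece of terminal ileum from 16 male mice on a C57BL/6 background, with 1 library per mouse. The WT mice and their fat-1 littermates (Fat1+/- in the labels) were 8 to 10 weeks old when feeding began, and fat-1 mice were heterozygous for a Caenorhabditis elegans n3 fatty acid desaturase transgene that is expressed in every tissue and converts n6 to n3 polyunsaturated fatty acids. All mice received a Lieber-DeCarli liquid diet for about 6 weeks: the ethanol of the EtOH groups was raised in steps from 1% to 6% (v/v), with 3 weeks at the last step, and pair-fed (PF) mice received the same calories with maltose dextrin in place of ethanol. The PF groups held 4 WT and 4 fat-1 mice, the EtOH groups held 3 WT and 5 fat-1 mice, and the libraries held 8422645 to 11438539 counted reads. The transgene is not a mouse gene and was not analysed here, so the genotype labels were not checked against it. Library numbers 1 to 8 were PF mice and 9 to 16 EtOH mice, so an effect of library order and one of diet cannot be told apart.

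Nuclear receptors are transcription factors that bind small lipophilic molecules and then switch target genes on or off. PXR and CAR sense drugs, bile acids and other foreign chemicals, pair with RXR alpha on DNA, and induce cytochrome P450, conjugation and transport genes in liver and small intestine. The aryl hydrocarbon receptor is not a member of that family but a bHLH-PAS protein: it pairs with ARNT, induces Cyp1a1 and also Ahrr, and in the gut responds to plant indoles and microbial tryptophan products. The glucocorticoid receptor is a steroid sensor that is held in the cytoplasm by HSP90 chaperones, LRH-1 directs bile acid, cholesterol and local steroid synthesis genes, and ERR alpha, which acts without a settled natural ligand, drives genes of mitochondrial respiration. Nr2f6 encodes an orphan receptor related to the COUP transcription factors.

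The sequences just before the start of transcription are shown for the 5 genes (4 lower and 1 higher) that passed the test for a change with EtOH in fat-1 mice, and for Ahrr, because it is itself an AHR target. RefSeq (GRCm38.p6, the mm10 build) gave 9 windows of 250 bases for 7 of the genes, and Ahr and Nr3c1 had no entry. The windows were searched on both strands for AGGTCA, the half-site that most nuclear receptors bind, and for GCGTG, the core that the AHR and ARNT pair binds. Capitals mark the matches, each sequence runs 5′ to 3′ on the strand of its gene, and the last base lies directly before the annotated start.
The Nr1i3 window was chr1:171213720-171213969 on the plus strand, that of Nr1i2 chr16:38294825-38295074 on the minus strand and that of Esrra chr19:6921809-6922058 on the minus strand. The windows of Nr2f6 (chr8:71381953-71382202), of the first Nr5a2 start (chr1:136960449-136960698) and of Ahrr (chr13:74292332-74292581) were also on the minus strand.
Nr1i3: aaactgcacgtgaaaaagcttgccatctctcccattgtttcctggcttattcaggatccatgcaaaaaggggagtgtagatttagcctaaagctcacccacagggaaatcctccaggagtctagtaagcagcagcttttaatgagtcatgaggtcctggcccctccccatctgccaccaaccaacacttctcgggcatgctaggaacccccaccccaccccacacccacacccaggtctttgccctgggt
Nr1i2: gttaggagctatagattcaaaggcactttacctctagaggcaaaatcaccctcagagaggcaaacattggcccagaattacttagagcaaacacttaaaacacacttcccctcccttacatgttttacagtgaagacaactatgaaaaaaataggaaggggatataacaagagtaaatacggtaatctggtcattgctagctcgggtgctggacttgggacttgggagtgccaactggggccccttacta
Esrra: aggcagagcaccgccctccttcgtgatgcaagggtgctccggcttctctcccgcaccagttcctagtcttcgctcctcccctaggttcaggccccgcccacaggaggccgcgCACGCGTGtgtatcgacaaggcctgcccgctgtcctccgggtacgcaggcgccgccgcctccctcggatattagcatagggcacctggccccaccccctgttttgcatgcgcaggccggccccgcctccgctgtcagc
Nr2f6: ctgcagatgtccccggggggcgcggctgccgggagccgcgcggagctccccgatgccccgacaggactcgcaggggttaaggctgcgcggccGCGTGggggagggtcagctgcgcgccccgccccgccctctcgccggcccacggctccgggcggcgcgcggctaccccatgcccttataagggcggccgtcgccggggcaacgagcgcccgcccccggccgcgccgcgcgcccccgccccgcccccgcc
Nr5a2: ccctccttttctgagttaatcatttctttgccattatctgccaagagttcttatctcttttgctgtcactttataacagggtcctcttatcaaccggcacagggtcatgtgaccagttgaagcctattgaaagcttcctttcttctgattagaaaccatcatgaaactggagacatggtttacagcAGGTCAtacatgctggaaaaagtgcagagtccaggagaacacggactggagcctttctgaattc
Ahrr: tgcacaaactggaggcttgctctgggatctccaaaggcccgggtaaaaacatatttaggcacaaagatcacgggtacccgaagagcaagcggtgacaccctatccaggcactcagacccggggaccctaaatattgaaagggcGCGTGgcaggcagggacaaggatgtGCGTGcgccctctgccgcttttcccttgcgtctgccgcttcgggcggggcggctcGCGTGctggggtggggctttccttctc
AGGTCA was found in 2 of the 9 windows and in 14% of 32851 mouse promoter windows of the same length, and GCGTG in 4 of 9 and 28.2%. The Ahrr window held 3 GCGTG cores, 107, 82 and 27 bases before the start, and 2.77% of all windows held 3 or more. In the Esrra window the 2 GCGTG matches overlapped each other on opposite strands. The first Nr5a2 window held 1 AGGTCA, 64 bases before the start. Neither motif was found in the printed windows of Nr1i2 and Nr1i3, which says only that these letters are not there. The windows of Nr1i2 and the first Nr5a2 start were low in G and C (44% and 43.2%), and that of Nr2f6 was high (82.4%).

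Levels can be compared between genes only per length, so levels in CPM (counts scaled to library size, with TMM factors) were divided by exon length in kilobases (kb). For Nr1i3 and Nr2f6 most of that length is also exon of a gene on the other strand (described below). The effect of this overlap on their levels per kb and ranks was not tested. In WT PF mice Esrra was the highest of the 9 genes, at 84.5 ± 12.9 CPM per kb (SD, n = 4), and ranked 3 of 41 when 39 nuclear receptor genes were ranked together with Ahr and Ahrr. Nr1i2 followed at 53.2 ± 6.94 and Rxra at 44.9 ± 1.2 CPM per kb, and the ranges of these 2 genes over mice overlapped. Nr3c1 (27.9 ± 2.07) and Nr2f6 (25.4 ± 2.97 CPM per kb) also overlapped. Nr1i3 (8.42 ± 5.29) and Nr5a2 (8.39 ± 1.09 CPM per kb) had like means but unlike spreads, since Nr1i3 ranged from 1.65 to 14.3 CPM per kb among the 4 mice. The AHR pair was low: Ahr was at 2.51 ± 0.531 and Ahrr at 0.235 ± 0.108 CPM per kb, rank 36 of 41. Esrra, Nr1i2 and Rxra held the first 3 places among the 9 genes in every group. The place of Nr1i3 among the 41 changed from 20 in WT PF and 16 in fat-1 PF to 31 with EtOH in WT and 36 with EtOH in fat-1 mice, and in fat-1 EtOH mice its range (0.0929 to 0.732 CPM per kb) overlapped that of Ahrr.

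**Figure D1:**
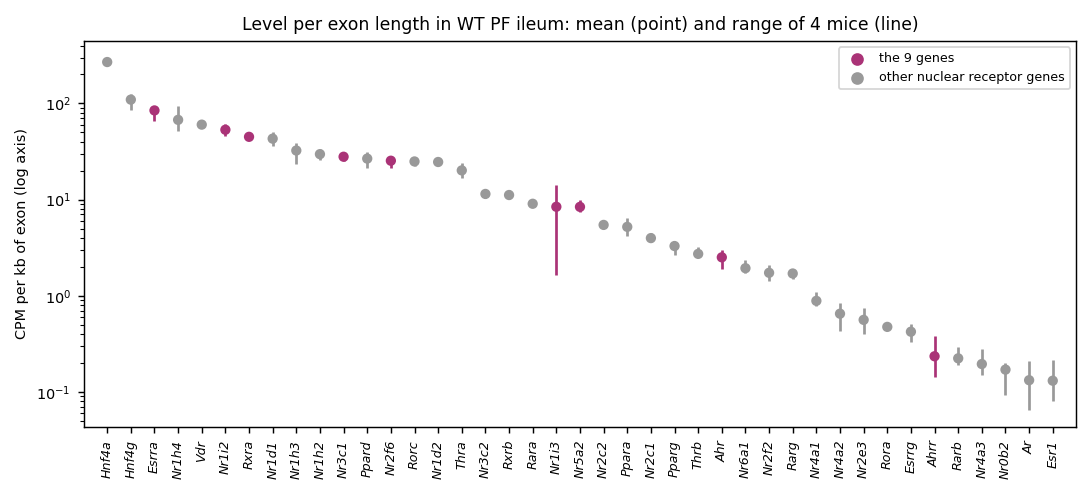
Level of each nuclear receptor gene, Ahr and Ahrr in WT PF ileum in CPM per kb of exon (log axis), with the mean of 4 mice as a point and their range as a line; the 9 genes described here are in colour. Esrra was the highest of the 9 at 84.5 CPM per kb and Ahrr the lowest at 0.235. On the log axis Nr1i3 had the widest range of the 9, from 1.65 to 14.3 CPM per kb.

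Some libraries stood apart in marker genes of gut position, and these values go with several results below. The summed level of 10 proximal small intestine markers, such as Gata4, Lct and Fabp1, was 2042 to 15840 CPM in WT PF, 11170 to 54730 in fat-1 PF, 354 to 396 in WT EtOH and 26.3 to 486 CPM in fat-1 EtOH mice. All 10 were lower with EtOH by adjusted p in fat-1 mice and 3 of 10 were in WT mice. Cyp2b10, described below as a CAR target, is among these 10 markers and among the 3, so the marker and target results share this gene. Gata4, which encodes a transcription factor of duodenum and jejunum that is switched off in ileum, was at 25.6 to 87.8 CPM in WT PF, 59.9 to 156 in fat-1 PF mice but 0 to 1.11 CPM in all 8 EtOH mice. The 5 ileum markers summed to 404 and 461 CPM in fat-1 PF mice 4 and 2, against 3688 and 6418 in fat-1 PF mice 1 and 3, and to 913 and 1866 CPM in fat-1 EtOH mice 3 and 4. Slc10a2, the ileal bile acid transporter, was at 3.56 and 7.58 CPM in fat-1 PF mice 4 and 2 and between 394 and 1382 CPM in the other 14. The 10 large intestine markers summed to 4682 CPM in WT EtOH mouse 2 and to 11540 and 12470 CPM in fat-1 EtOH mice 3 and 4. In the other 13 mice they summed to 158 to 876 CPM. Car1, at 4041, 11160 and 12210 CPM, made up most of the sums of those 3 mice. Ang4, with a mean of 637 CPM, made up most of the 614 to 801 CPM summed in WT PF mice. Averaged over genotypes, Ang4 had a log2 fold change of -0.03 with EtOH (edgeR adjusted p = 0.981). Of the 10 markers, 5, among them Hoxb13 and Hoxd13, were at 0 in all WT PF mice. All 6 smooth muscle markers were higher with EtOH in fat-1 mice, with summed levels of 906 to 1355 CPM in PF and 1859 to 4042 CPM in EtOH, while 7 epithelial markers summed to 10360 to 15750 and 9188 to 15460 CPM. In WT mice none of the 6 passed in edgeR, all 6 had an unadjusted p under 0.05, and their sums were 1066 to 1434 CPM in PF and 1964 to 2606 CPM in EtOH, without overlap. In fat-1 EtOH mouse 5 the B cell markers summed to 486 CPM and the T cell markers to 165 CPM, against at most 97.9 and 53.1 CPM in any other mouse, and this mouse had the lowest Nr1i2 and Nr2f6 of its group; without it the same 5 genes as below passed in fat-1 mice. The part of these markers in the results below was not tested, and in bulk tissue fewer cells of a type and less RNA per cell cannot be told apart.

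EtOH feeding was followed by lower Nr1i3, Esrra, Nr1i2 and Nr2f6 and higher Nr5a2 in fat-1 mice. These 5 of the 9 genes passed the test of EtOH against PF in fat-1 mice (edgeR quasi-likelihood test, adjusted p of 0.05 or less over all genes tested), where 37.4% of all tested genes passed. In one direction, 4 of 9 were lower against 18.8% of all genes and 1 of 9 was higher against 18.7%. The median log2 fold change of the 9 genes was -0.30 and that of all genes 0.05. With upper-quartile scaling the share of higher genes among all those called was 69% in place of 49.9%, and the median of all genes 0.20. In the same comparison the mice of both groups did not overlap for 5 of the 9 genes, as for 24% of all genes. These were the 5 genes that passed, and each reached the smallest p that an exact two-sided permutation test of 4 against 5 mice can give (p = 0.00794, 0.0571 after adjustment over 36 such tests). In WT EtOH vs WT PF none of the 9 passed in edgeR (0.0796% of all genes did), and 3 had an unadjusted p under 0.05, as had 14.1% of all genes. The mice did not overlap for 3 of 9 genes (Nr1i3, Nr2f6 and Rxra), as for 24.3% of all genes. Other analyses of the WT mice called some of the 9: DESeq2 called Nr1i3 and Nr2f6 among 257 of 13811 genes, limma voom those 2 with Esrra and Rxra among 2853 of 13811, and edgeR on the WT mice alone Esrra and Nr2f6 among 1103 of 13250. Averaged over both genotypes, the same 5 genes passed as in fat-1 mice (35.9% of all genes passed).

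**Figure D2:**
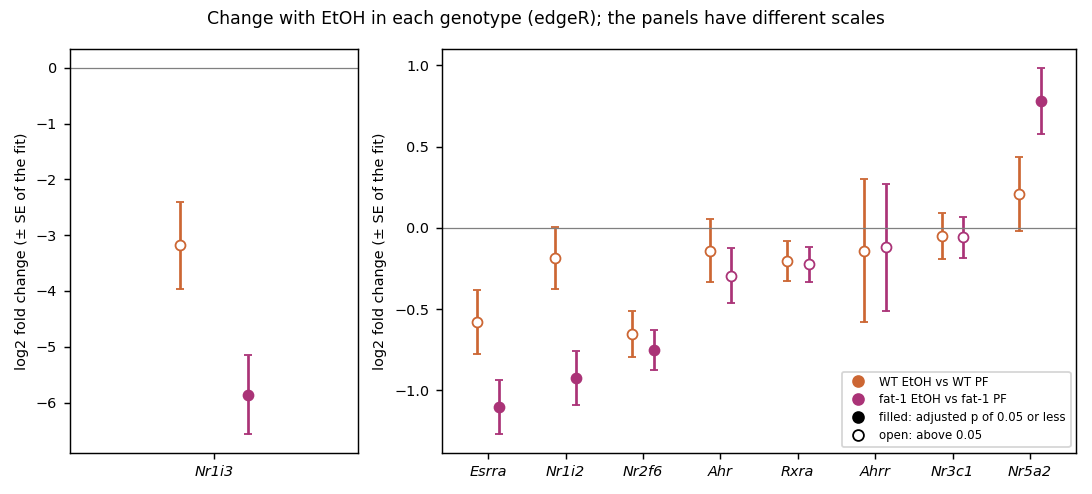
Log2 fold change with EtOH (± SE of the edgeR fit) of the 9 genes in WT mice (3 EtOH against 4 PF) and fat-1 mice (5 EtOH against 4 PF), with Nr1i3 on its own scale; filled points have an adjusted p of 0.05 or less. In fat-1 mice Nr1i3, Esrra, Nr1i2 and Nr2f6 lie below 0 and Nr5a2 above it with filled points, and every point of the WT comparison is open.

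Nr1i3 (ENSMUSG00000005677, chr1:171213970-171220701), which encodes CAR, changed most. It was at 63.05, 44.7, 33.5 and 7.28 CPM in WT PF mice 1 to 4 and at 51.1, 184, 36.1 and 150.5 CPM in the fat-1 PF mice. With EtOH it was at 4.75, 5.46 and 2.18 CPM in WT mice and at 2.38, 3.23, 0.410, 0.981 and 2.05 CPM in fat-1 mice. Every EtOH mouse lay below every PF mouse, with WT PF mouse 4 closest to the EtOH mice. Nr1i3 was 58.0 times lower in fat-1 EtOH than in fat-1 PF mice (log2 fold change -5.86, SE 0.71, edgeR adjusted p = 0.000247). In WT mice it was 9.04 times lower by the fit (log2 fold change -3.18, SE 0.78, edgeR adjusted p = 0.155), without passing, and without WT PF mouse 4 the adjusted p was 0.0426. The 2 highest values were those of fat-1 PF mice 2 and 4, the mice with little Slc10a2. Without these 2 mice the log2 fold change in fat-1 mice was -4.58 (edgeR adjusted p = 0.00625), and without them and the 3 mice high in large intestine genes it was -4.07 (edgeR adjusted p = 0.0180).

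Nr1i3 shares most of its exon length with a neighbour on the other strand. Of its 4414 exon bases, 3304 are also exon of Tomm40l, and the libraries were stranded but the strand setting of the counting was not given in the sources used here. Tomm40l averaged 27.4 ± 2.72 CPM (SD, n = 4) in WT PF and 23.1 ± 2.94 CPM (SD, n = 3) in WT EtOH mice, and it averaged 36.6 ± 8.94 CPM (SD, n = 4) and 27.3 ± 7.31 CPM (SD, n = 5) in the fat-1 mice on PF and EtOH. Its highest values, 44.8 and 43.1 CPM, were in fat-1 PF mice 2 and 4, where Nr1i3 was also highest, while in fat-1 EtOH mice 3 and 4, where Nr1i3 was lowest, it was at 31.9 and 37.7 CPM. The diets overlapped in both genotypes, and the part of shared reads in the Nr1i3 values was not tested.

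**Figure D3:**
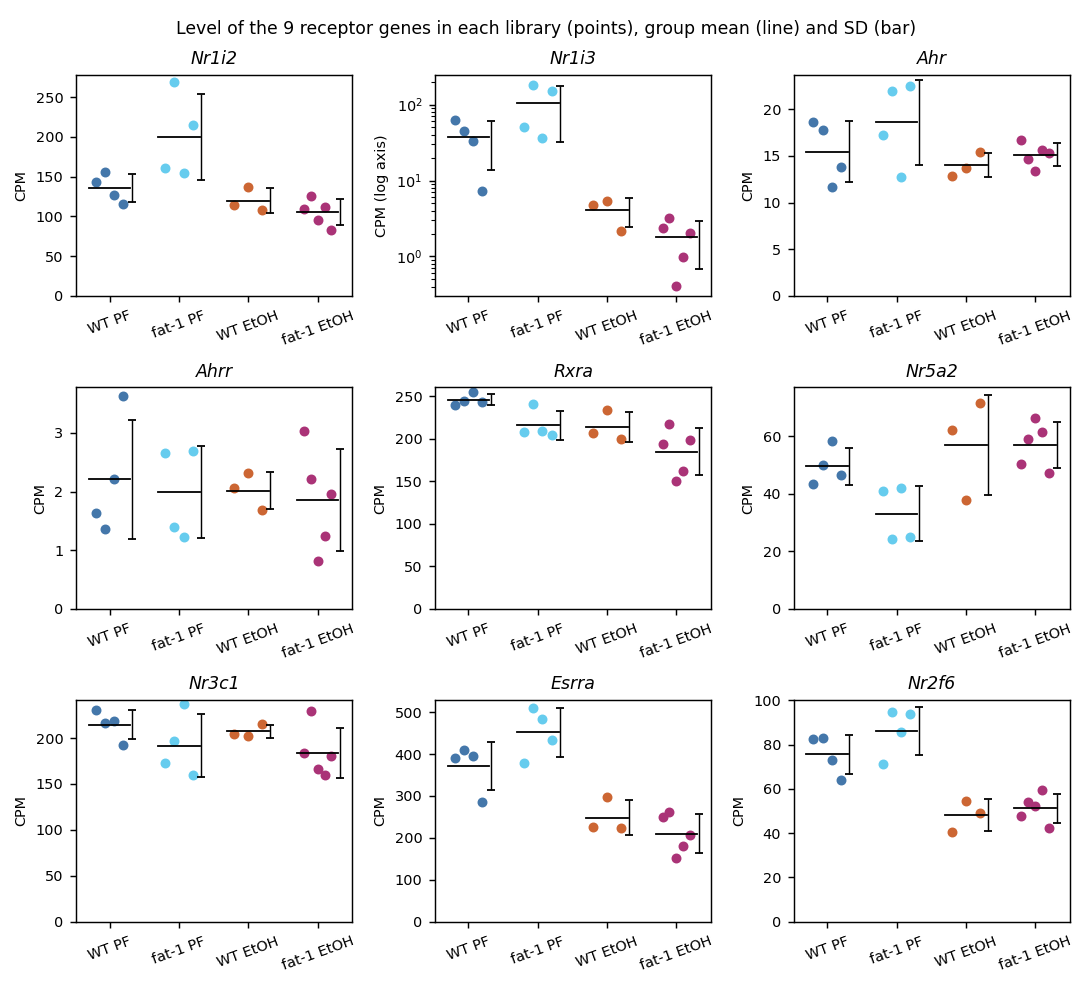
CPM of the 9 genes in each of 16 ileum libraries (points), by group, with the group mean (horizontal line) and SD (bar); every axis starts at 0 except that of Nr1i3, which is a log axis. All 8 EtOH mice lie below all 8 PF mice for Nr1i3 and Nr2f6, while the groups of Ahr, Ahrr and Nr3c1 overlap.

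Nr1i2 (ENSMUSG00000022809, chr16:38248323-38294824), which encodes PXR, moved much less. It was at 144, 156, 127 and 116 CPM in WT PF and at 160.5, 269, 155 and 215 CPM in fat-1 PF mice. In EtOH mice it was at 114, 137 and 107 CPM (WT) and at 109.6, 125.6, 95.9, 112 and 82.4 CPM (fat-1). The fat-1 groups did not overlap, whereas the WT groups did. Nr1i2 was 1.90 times lower with EtOH in fat-1 mice (log2 fold change -0.93, SE 0.17, edgeR adjusted p = 0.00108), and its log2 fold change in WT mice was -0.18 (SE 0.19, edgeR adjusted p = 0.697). As for Nr1i3, fat-1 PF mice 2 and 4 were highest. Without them the log2 fold change in fat-1 mice was -0.58 (edgeR adjusted p = 0.0334), and without all 5 mice that stood apart it was -0.56 and no longer passed (edgeR adjusted p = 0.0536). No Nr1i2 exon overlaps another gene in the annotation.

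Among targets of PXR and CAR, more were called lower than higher in fat-1 mice. Of 21 tested PXR and CAR target genes, 9 were lower and 3 higher with EtOH in fat-1 mice by edgeR, with a median log2 fold change of -0.60, against 18.8% lower and 18.7% higher and a median of 0.05 over all genes. In WT mice 1 of the 21 passed, Cyp2b10, which is also in the proximal marker list, and 7 had an unadjusted p under 0.05, against 14.1% of all genes. The summed level of all 22 listed targets overlapped between diets, at 3730 to 7159 CPM in fat-1 PF mice against 1969 to 5615 CPM in fat-1 EtOH mice, with fat-1 EtOH mice 3 and 4 highest among the latter (5481 and 5615 CPM). Cyp2b10, the classic CAR target and a drug-oxidising P450 of the proximal small intestine, was at 116, 41.1, 50.2 and 9.87 CPM in WT PF and 105, 308, 94.2 and 251 CPM in fat-1 PF mice. It was at 1.01 to 1.89 CPM in the 3 WT EtOH and 0.178 to 1.62 CPM in the 5 fat-1 EtOH mice, far below every PF mouse. Its log2 fold change was -8.29 (SE 0.78, edgeR adjusted p = 0.000157) in fat-1 and -5.37 (SE 0.86, edgeR adjusted p = 0.0388) in WT mice. Cyp3a11, the main PXR-induced P450, was at 35.5 to 149 CPM in WT PF, 104 to 909.5 CPM in fat-1 PF, 6.98 to 17.7 CPM in WT EtOH and 0.178 to 28.2 CPM in fat-1 EtOH mice. It was lower by 5.32 on the log2 scale in fat-1 mice (SE 1.03, edgeR adjusted p = 0.00179), and in WT mice the log2 fold change was -2.67 (SE 1.14, edgeR adjusted p = 0.318). The 3 that were higher in fat-1 mice, Sult1a1, Gstm2 and Cyp2c55, all overlapped between groups and are named after their values were seen; Sult1a1, a sulfotransferase, had a log2 fold change of 4.73 with an SD of 227 CPM around a mean of 176 CPM in fat-1 EtOH mice.

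**Figure D4:**
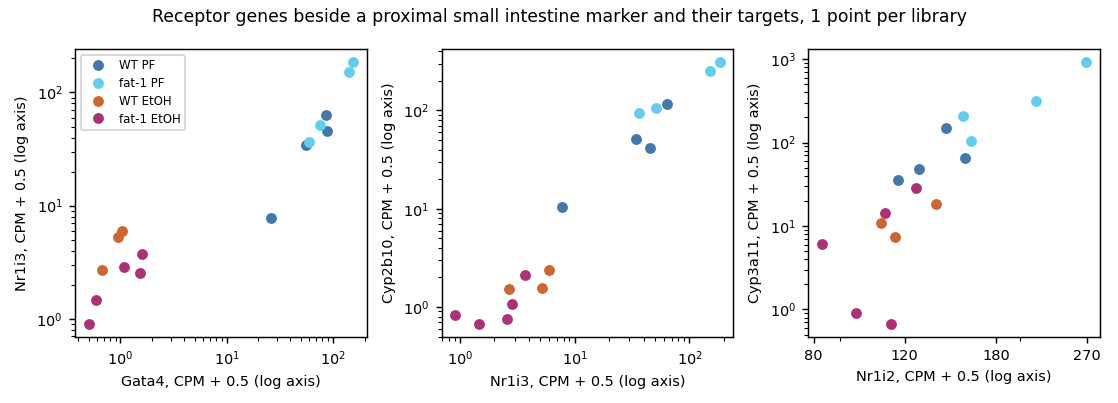
Each point is 1 of 16 libraries, coloured by group, on log axes of CPM + 0.5: Nr1i3 against Gata4, Cyp2b10 against Nr1i3 and Cyp3a11 against Nr1i2. The PF libraries lie at the upper right and the EtOH libraries at the lower left in the first 2 panels, where Gata4 is at 25.6 to 156 CPM in PF and at 0 to 1.11 CPM in EtOH mice.

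The AHR genes were at similar levels in the 4 groups. Ahr (ENSMUSG00000019256, chr12:35497974-35535038) was at 11.7 to 18.6 CPM in WT PF, 12.7 to 22.5 in fat-1 PF, 12.9 to 15.4 in WT EtOH and 13.4 to 16.7 CPM in fat-1 EtOH mice. All 4 groups overlapped, and fat-1 PF mice 2 and 4 were highest. The log2 fold change with EtOH was -0.30 (SE 0.17, edgeR adjusted p = 0.177) in fat-1 and -0.14 (SE 0.19, edgeR adjusted p = 0.780) in WT mice; without fat-1 PF mice 2 and 4 the value in fat-1 mice was 0.02, and without fat-1 PF mouse 3 it was -0.43 and passed (edgeR adjusted p = 0.0444). Ahrr (ENSMUSG00000021575, chr13:74211118-74292331), the feedback repressor that is induced by AHR, was low, at 0.820 to 3.64 CPM, where 3 counts were worth 0.246 to 0.421 CPM. Its log2 fold change was -0.12 (SE 0.39) in fat-1 and -0.14 (SE 0.44) in WT mice. A change of the size seen for Nr1i2 lay within 1 SE of this in WT mice (-0.18) but not in fat-1 mice (-0.93). The direction of Ahrr turned with limma voom in both genotypes and with upper-quartile scaling in fat-1 mice.

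Partners and targets of AHR moved little. Arnt, the DNA-binding partner of AHR, was at 43.9 to 54.4 CPM in all 16 mice (log2 fold change with EtOH 0.03, SE 0.07, in fat-1 and 0.07, SE 0.08, in WT mice). Cyp1a1, its best-known target, was at 0 to 0.728 CPM and was not tested. None of the 6 tested AHR targets passed in edgeR in either genotype. No target had an unadjusted p under 0.05 in WT mice (0 of 6), and 2 of 6 had one in fat-1 mice, as had 47.9% of all genes. Tiparp, an AHR-induced enzyme that limits AHR signalling, was at 35.7 to 48.5 CPM in the 8 PF mice and 21.1 to 43.9 CPM in the 8 EtOH mice. It passed only when both genotypes were averaged, among the diet comparisons run in edgeR (log2 fold change -0.40, edgeR adjusted p = 0.0373). In that comparison 1 other of the 6 passed, in the opposite direction: Cyp2s1, named after its value was seen (log2 fold change 0.25, edgeR adjusted p = 0.0358), so that 2 of 6 passed, against 35.9% of all genes.

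Rxra (ENSMUSG00000015846, chr2:27676440-27762957), the shared partner of PXR, CAR and many other receptors, was high in all mice. It was at 239.9, 244, 255 and 243 CPM in WT PF and 207, 241, 209 and 204 CPM in fat-1 PF mice. With EtOH it was at 207, 233 and 199.5 CPM in WT and 194, 218, 151, 161 and 198 CPM in fat-1 mice. The WT groups did not overlap and the fat-1 groups did, with fat-1 EtOH mice 3 and 4, the mice with the most Car1, lowest. Its log2 fold change was -0.20 (SE 0.12) in WT and -0.22 (SE 0.11, edgeR adjusted p = 0.110) in fat-1 mice, and averaged over genotypes it was -0.21 (SE 0.08) and missed the limit (edgeR adjusted p = 0.0516). Without the 3 mice high in large intestine genes the value in fat-1 mice was -0.06.

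Nr3c1 (ENSMUSG00000024431, on chromosome 18), which encodes the glucocorticoid receptor, was the steadiest of the 9, with a highest value 1.48 times its lowest. It was at 192 to 230.1 CPM in WT PF, 160.0 to 237 in fat-1 PF, 202 to 215 in WT EtOH and 159.9 to 229.6 CPM in fat-1 EtOH mice. The groups overlapped throughout. The log2 fold change with EtOH was -0.06 (SE 0.12, edgeR adjusted p = 0.729) in fat-1 and -0.05 (SE 0.14) in WT mice, and with upper-quartile scaling its sign turned in both. Of 15 glucocorticoid receptor targets, 1 was higher and 2 were lower in fat-1 mice by edgeR, where 18.7% of all genes were higher and 18.8% lower, with a median log2 fold change of 0.11. In WT mice none passed and 4 of 15 had an unadjusted p under 0.05, against 14.1% of all genes. Tsc22d3, which encodes the glucocorticoid-induced leucine zipper, was at 87.2 to 163 CPM in fat-1 PF mice, all above the 37.3 to 65.6 CPM of fat-1 EtOH mice (log2 fold change -1.14, SE 0.20, edgeR adjusted p = 0.000986). Fkbp5, a chaperone that is the usual readout of glucocorticoid action, had a fold change of the opposite sign. It was at 24.4 to 119 CPM in PF and 65.7 to 298 CPM in EtOH mice, with the highest values, 233 and 298 CPM, in fat-1 EtOH mice 3 and 4, the mice with the most Car1. It passed when both genotypes were averaged (log2 fold change 1.16, edgeR adjusted p = 0.0312), where Tsc22d3 had -0.98, and not in fat-1 mice alone (log2 fold change 1.38, edgeR adjusted p = 0.0526). Of 10 partners of AHR and the glucocorticoid receptor, 2 were lower and 1 was higher in fat-1 mice. The higher one, Hsd11b2, which encodes the enzyme that inactivates corticosterone, rose in fat-1 mice (log2 fold change 2.94, SE 0.69, edgeR adjusted p = 0.00524). Its 2 highest values, 154 and 162 CPM, were in fat-1 EtOH mice 3 and 4, the mice with the most Car1, followed by 80.6 CPM in WT EtOH mouse 2, the other mouse high in large intestine genes, and its lowest values, 2.70 and 5.90 CPM, were in fat-1 PF mice 4 and 2, the mice with little Slc10a2.

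Nr5a2 (ENSMUSG00000026398, chr1:136842571-136960448), which encodes LRH-1, was the only one of the 9 that was higher with EtOH by the test. It was at 43.3, 50.1, 58.2 and 46.5 CPM in WT PF and 41.0, 24.4, 42.0 and 25.0 CPM in fat-1 PF mice. In EtOH mice it was at 62.0, 37.8 and 71.4 CPM (WT) and 50.4, 59.1, 66.3, 61.6 and 47.3 CPM (fat-1). The fat-1 PF mice were all below the other fat-1 mice, and mice 2 and 4 among them were lowest, the reverse of Nr1i3. Nr5a2 was 1.72 times higher with EtOH in fat-1 mice (log2 fold change 0.78, SE 0.20, edgeR adjusted p = 0.00903) and 1.15 times higher by the fit in WT mice (log2 fold change 0.21, SE 0.23, edgeR adjusted p = 0.720). Without fat-1 PF mice 2 and 4 the value was 0.46 and did not pass (edgeR adjusted p = 0.143). None of the 6 tested LRH-1 targets passed in edgeR in either genotype, and 0 of 6 had an unadjusted p under 0.05, against 47.9% of all genes in fat-1 and 14.1% in WT mice. The summed level of all 8 listed targets was 138 and 144 CPM in fat-1 EtOH mice 3 and 4, the mice with the most Car1, against 547 to 925 CPM in the other mice. Nr0b2, which encodes the repressor SHP, was at 0.104 to 0.226 CPM in WT PF mice, below 3 counts in each, at 0.547 to 4.05 CPM in fat-1 PF, at 0 to 0.756 CPM in WT EtOH and at 0 to 1.96 CPM in fat-1 EtOH mice, and it passed in none of the comparisons between these groups by edgeR.

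Esrra (ENSMUSG00000024955, chr19:6910977-6921813), which encodes ERR alpha, had, after Nr1i3, the second largest log2 fold change with EtOH among the 9 genes in fat-1 mice. It was at 390.3, 410.3, 396 and 287 CPM in WT PF and 378, 510.4, 483 and 434 CPM in fat-1 PF mice. With EtOH it was at 225, 296 and 223 CPM in WT and 249, 261, 151, 181 and 207 CPM in fat-1 mice. Among the PF mice, WT PF mouse 4, at 287 CPM, was the one within the range of the EtOH mice. Esrra was 2.15 times lower in fat-1 EtOH than in fat-1 PF mice (log2 fold change -1.10, SE 0.17, edgeR adjusted p = 0.000444), and its value in WT mice was -0.58 (SE 0.19, edgeR adjusted p = 0.222). It still passed in fat-1 mice without the 5 mice that stood apart (log2 fold change -0.83, edgeR adjusted p = 0.0173), as it then did in WT mice (log2 fold change -0.72, edgeR adjusted p = 0.0452).

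Most ERR alpha targets were called lower in fat-1 mice. Of 8 tested targets, all in mitochondrial metabolism, 6 were lower and none higher in fat-1 mice by edgeR, where 18.8% of all genes were lower and 18.7% higher, with a median log2 fold change of -0.77. In WT mice none passed, 3 of 8 had an unadjusted p under 0.05, against 14.1% of all genes, and the median was -0.30. The summed level of the 8 was highest in fat-1 PF mice 2 and 4, the mice with little Slc10a2, at 7171 and 6510 CPM, against 5866 and 5272 CPM in fat-1 PF mice 1 and 3 and 3375 to 3925 CPM in the fat-1 EtOH mice. Sdhb, a subunit of succinate dehydrogenase, averaged 453 ± 104 CPM (SD) in the 4 fat-1 PF mice and fell to 227 ± 12.3 CPM (SD) in the 5 fat-1 EtOH mice (edgeR adjusted p = 0.000312). Cs, citrate synthase, had 1382 ± 119 and 694 ± 228 CPM (edgeR adjusted p = 0.00231). Pdk4, which restrains pyruvate oxidation and is also a glucocorticoid target, was not called and was highest at 191 and 123 CPM in fat-1 EtOH mice 3 and 4. Ppargc1a, the coactivator PGC-1 alpha through which ERR alpha drives these genes, was named after its value was seen: its log2 fold change was -0.90 (SE 0.26, edgeR adjusted p = 0.0156) in fat-1 mice with overlapping groups. Among all 11 coregulators 1 was lower and 2 were higher, and the one without overlap was Ncoa3 (log2 fold change 0.64, SE 0.15, edgeR adjusted p = 0.00425).

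Nr2f6 (ENSMUSG00000002393, chr8:71374123-71381960) had, like Nr1i3, no EtOH mouse within the range of the PF mice. It was at 82.4, 82.8, 73.0 and 64.2 CPM in WT PF and 71.2, 94.8, 85.6 and 93.8 CPM in fat-1 PF mice. With EtOH it was at 40.4, 54.7 and 49.2 CPM in WT and 47.9, 54.0, 52.2, 59.6 and 42.5 CPM in fat-1 mice. The highest EtOH value, 59.6 CPM, was close to the lowest PF value, 64.2 CPM. Nr2f6 was 1.68 times lower in fat-1 mice (log2 fold change -0.75, SE 0.12, edgeR adjusted p = 0.000641) and 1.57 times lower by the fit in WT mice (log2 fold change -0.65, SE 0.14, edgeR adjusted p = 0.114). In WT mice its exact permutation p was the smallest that 3 against 4 mice allow (p = 0.0286, 0.129 after adjustment over 36 such tests). Rxra reached the same p in WT mice. Nr2f6 passed in fat-1 mice under all 26 alternatives, as Nr1i3 and Esrra did. Nr2f6 shares 1622 of its 2983 exon bases with Ocel1 on the other strand, and with the strand setting unknown the part of shared reads was not tested. Ocel1 averaged 20.1 ± 3.47 CPM (SD) in the 4 fat-1 PF mice, all above the 5 fat-1 EtOH mice with 13.2 ± 1.77 CPM (SD), and it averaged 15.7 ± 2.39 CPM (SD, n = 4) and 13.4 ± 2.06 CPM (SD, n = 3) in the WT mice on PF and EtOH, which overlapped.

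Genotype alone was followed by no call among the 9 genes. In fat-1 PF vs WT PF none passed in edgeR, as did 0% of all genes, nor did any under the 26 alternatives, DESeq2 and limma voom among them. An unadjusted p under 0.05 was found for 3 of the 9, as for 12.7% of all genes. These were Nr1i2 (log2 fold change 0.56, SE 0.18, edgeR adjusted p = 0.205), Nr1i3 (1.5, SE 0.62, edgeR adjusted p = 0.327) and Nr5a2 (-0.58, SE 0.21, edgeR adjusted p = 0.270). The groups did not overlap for Nr5a2 alone, 1 of 9 against 6.87% of all genes. For all 3 the extreme values were those of fat-1 PF mice 2 and 4, and without these mice the log2 fold changes were 0.21, 0.23 and -0.26, none of which passed. In fat-1 EtOH vs WT EtOH none of the 9 passed in edgeR or under the 26 alternatives, as did 0.00724% of all genes. No gene of the 9 had groups without overlap (2.45% of all genes had) or an unadjusted p under 0.05 (4.86% of all genes had), and the smallest in edgeR was that of Rxra (unadjusted p = 0.0916).

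The effect of EtOH was not shown to differ between the genotypes for any of the 9. In the test of the genotype by diet interaction in edgeR none passed, as did 0% of all genes, and none did under the 25 alternatives; 2 of 9 had an unadjusted p under 0.05 against 8.26% of all genes. Nr1i3 had an interaction of -2.68 on the log2 scale (SE 0.99, edgeR adjusted p = 0.595) and Nr1i2 one of -0.74 (SE 0.25, edgeR adjusted p = 0.595), the sign standing for a fold change with EtOH that was further below 0 in fat-1 than in WT mice. Without fat-1 PF mice 2 and 4 these were -1.41 and -0.40, and without all 5 mice that stood apart -0.66 and -0.28. Between the EtOH groups the log2 fold changes of fat-1 against WT were -1.18 (SE 0.78) for Nr1i3 and -0.19 (SE 0.18) for Nr1i2, with overlapping groups. Nr2f6 had nearly the same change in both genotypes (interaction -0.10, SE 0.19), as had Rxra (-0.02, SE 0.16) and Nr3c1 (-0.01, SE 0.19).

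Other nuclear receptor genes were called in shares near those of all genes. Of the 32 tested nuclear receptor genes outside the 9, 7 were higher and 6 lower with EtOH in fat-1 mice by edgeR, where 18.7% of all genes were higher and 18.8% lower. In WT mice none of the 39 passed and 8 had an unadjusted p under 0.05, against 14.1% of all genes. Nr1h3, which encodes the oxysterol receptor LXR alpha, was lower (log2 fold change -1.23, SE 0.27, edgeR adjusted p = 0.00339). Nr4a3, an immediate early orphan receptor, and Rarg, a retinoic acid receptor, were higher without overlap, by 1.81 (SE 0.40) and 1.36 (SE 0.27) on the log2 scale. Over all 39 tested nuclear receptor genes, 10 were lower and 8 higher, of which 4 and 1 were among the genes described here.

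The genes with the most similar profiles over the 16 mice were found by Pearson correlation of log2 CPM among 13802 other tested genes, as a description without a test. The points share their libraries and diets, so a high value can come from the diet difference alone, and for the most similar gene the values within 8 PF and within 8 EtOH mice are given in that order. Nr1i3 was most like Leap2 (r = 0.989, 0.961 within PF and 0.938 within EtOH mice), a hormone gene of the proximal small intestine that is also in the proximal marker list, then Rbp2, the retinol-binding protein of enterocytes, and H2-Q1. Esrra was most like Chchd7 (r = 0.988, 0.941 and 0.994), then Zdhhc7 and Cyp3a13, itself a listed PXR and CAR target. Nr1i2 was most like Nadsyn1 (r = 0.961, 0.963 and 0.826), then Msra and Atp5a1, a subunit of mitochondrial ATP synthase. Nr2f6 was most like Cblc (r = 0.964, 0.953 and 0.748), then Becn1 and Bad. Nr5a2 was most like Atp13a3 (r = 0.923, 0.894 and 0.892), Glce and Pde5a, Nr3c1 like Rp2 (0.945, 0.956 and 0.952), Tmem127 and Lrp12, and Rxra like Ppp2r5d (0.918, 0.801 and 0.902), Pcif1 and Atxn1. The lowest were those of Ahr, with Ros1 (r = 0.859, 0.897 and 0.170) and 2610021A01Rik, and Ahrr, with Ankle1 (0.816, 0.641 and 0.979), Pmel and Dot1l. Among the 9 themselves, the pair Nr1i3 and Esrra had the highest correlation (r = 0.958 over the 16 mice).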

How the data were processed

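Total ileum RNA from each mouse was made into stranded poly(A) libraries. Per the paper's methods, the authors aligned paired reads of 75 bases with tophat2 to mm10. The deposited values are raw counts (reads assigned to each gene), and the name of the deposited table credits htseq, whose version and strand setting were not given in the sources used here, and the submitters' processing notes also name FastQC 0.10.1. Counts per library totalled 8422645 to 11438539, and the level given for 3 counts covers counting error only. Of the 21965 genes, 4158 had no count and 26 were absent from GENCODE M21, which gave symbols, positions and exon lengths.

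Counts were analysed in R 4.3.3 with edgeR 4.0.16. The filterByExpr function removed genes with low counts, TMM gave the library factors, and all 16 libraries entered a robust quasi-likelihood fit with a term for each of the 4 groups. Adjusted p-values (Benjamini-Hochberg) cover all 13811 tested genes, with a limit of 0.05. The authors' own test, cuffdiff2, needs aligned reads. Values per mouse are CPM over TMM-adjusted library sizes. Single genes were also compared with exact two-sided permutation tests on log2(CPM + 0.5). Log2 CPM used a prior count of 2. Tested on simulated counts for WT EtOH vs WT PF, the model called 41 of 100 genes changed 2-fold and 81 of 100 changed 4-fold, and for EtOH against PF in fat-1 mice 54 of 99 and 85 of 100. The simulated counts held changes in these genes alone and no libraries that stood apart in gut position. The counts called are therefore not the power of the test in the mice studied here. Replicates are separate mice, and no pair of the same group was alike within sampling noise (25 pairs, chi-square per degree of freedom at least 7.57).

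The members and lists were chosen with earlier results of these data known. Named are the 9 genes, for each the 3 genes most like it (1 of which is not reported here), from each list the 2 called genes with the largest change in each direction whose groups do not overlap, and the best-known target of each receptor. B cell, T cell, macrophage, adipocyte and red blood cell markers were also listed: in fat-1 mice 1 of their 25 tested genes was called, the adipocyte gene Cidec (named after its value was seen), and in WT mice 0 of 25, with an unadjusted p under 0.05 for 2. Alternatives were DESeq2 size factors or upper-quartile factors, no filter beyond 1 count, DESeq2 1.42.0, limma 3.58.1 voom, the compared groups alone, a replicate block, each library left out, and 3 sets of libraries left out after seeing the data. Promoters came from RefSeq GRCm38.p6.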

Additional observations from a re-analysis of the deposited data

Results flagged for a closer look

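In the 27 sets of 1 of the 9 genes in 1 group of 4 or 5 mice, 2 values stood far from the rest of their group, where chance alone gives about 1 in 20. Rxra was at 240.9 CPM in fat-1 PF mouse 2, against 204.4 to 209 CPM in the other 3 fat-1 PF mice; this mouse also had the highest Nr1i2, Nr1i3, Esrra and Nr2f6 and, at 7.58 CPM, little Slc10a2. Esrra was at 286.6 CPM in WT PF mouse 4, against 390.3 to 410.3 CPM in the other 3 WT PF mice; this mouse also had the lowest Nr1i3 (7.28 CPM), Nr1i2 (116 CPM), Nr2f6 (64.2 CPM), Cyp2b10 (9.87 CPM) and Gata4 (25.6 CPM) of its group and the highest Slc10a2 (1272 CPM).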

How the results depend on the processing

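Nr1i3, Esrra and Nr2f6 were lower in fat-1 EtOH than in fat-1 PF mice, and passed, under all 26 alternatives; Nr1i2 passed in 25 and Nr5a2 in 24. Of the 9 genes, 5 were called there in the reported analysis, 4 without the 2 libraries low in ileum genes, 3 without the 5 libraries high in large intestine or low in ileum genes, and 5 to 6 with 1 library left out (6 without fat-1 PF mouse 3, which added Ahr, or fat-1 EtOH mouse 2, which added Rxra). In WT mice the count moved from 0 to 2 with DESeq2, 4 with limma voom, 2 with the compared groups alone, 2 without those 5 libraries, and 0 to 2 with 1 library left out (2 without WT PF mouse 4). The cause was not tested. Averaged over genotypes the count was 4 to 6, with Nr5a2 lost without WT EtOH mouse 1 or 3 and without the 2 libraries low in ileum genes. Over all genes, 3086 of 13296 were called in fat-1 mice with the compared groups alone against 5170 of 13811, 1965 without the 2 libraries and 1626 without the 5; in WT mice 11 were called, against 2 without the filter, 257 with DESeq2, 2853 with limma voom, 1103 with the compared groups alone, 468 without the 5 libraries, 26 without the 3 libraries high in large intestine genes, 18 with a replicate block and 0 to 66 with 1 library left out. In fat-1 PF vs WT PF 0 were called, against 189 with DESeq2, 30 with limma voom and 0 to 114 with 1 library left out, and between the genotypes on EtOH 1, against 5 with DESeq2.
Replicate numbers did not pair the mice: same-numbered mice of different groups deviated with a mean correlation of -0.0225 (21 pairs). With a replicate block 5 of the 9 genes were called in fat-1 mice, 6 averaged over genotypes (Rxra added) and 0 elsewhere.
Upper-quartile scaling moved the median of all genes in fat-1 mice from 0.05 to 0.20 and the share of higher genes among those called from 49.9% to 69%; averaged over genotypes, the median moved from 0.04 to 0.14 and the share from 50.9% to 68.2%. The share in fat-1 mice was 40.4% with limma voom and 36% without the 5 libraries.
Signs turned for Nr3c1, Ahrr and Ahr, none of which had passed. For Nr3c1 they became 0.0021 (WT), 0.088 (fat-1) and 0.045 (averaged) with upper-quartile factors, 0.056 (fat-1) with limma voom, and 0.075 (fat-1) and 0.022 (averaged) without the 3 libraries; leaving out 1 library gave -0.15 to 0.070 in fat-1 mice and -0.10 to 0.014 averaged. For Ahrr they became 0.018 (fat-1) with upper-quartile factors, 0.023 (WT), 0.11 (fat-1) and 0.067 (averaged) with limma voom, 0.27 (fat-1) and 0.010 (averaged) without the 3 libraries, and 0.29 (fat-1) and 0.025 (averaged) without the 5. Leaving out 1 library gave -0.31 to 0.21 for Ahrr in WT, -0.35 to 0.081 in fat-1 and -0.24 to 0.044 averaged. For Ahr in fat-1 mice, at -0.30 in the reported analysis, they became 0.015 without the 2 and 0.063 without the 5 libraries.
At 9 to 35 counts per library, depth limits Ahrr.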
